A study of Mus musculus with 6 samples.

Results

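Voltage-gated sodium and calcium channels open when the membrane of a nerve or muscle cell is depolarised. Sodium channels, each a pore-forming alpha subunit with beta subunits attached, carry the rising phase of the action potential. Calcium channels have an alpha1 pore, joined in the Cav1 and Cav2 families by a beta and an alpha2delta subunit. They couple electrical activity to transmitter release, firing pattern and gene transcription. In the brain most of the gamma subunits named after calcium channels act instead as auxiliary proteins of AMPA-type glutamate receptors and are called TARPs.

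The channel genes described here are the known genes whose symbols begin with Scn and a digit or with Cacn and whose raw counts summed to at least 60 over all libraries. They were 31 of 24459 genes in the deposited gene table, 10 of them sodium channel genes and 21 calcium channel genes. Another 9 known genes with such symbols fell below 60 counts, and Cacna1f, a retinal L-type alpha1 subunit with 44 counts, was the nearest below. Just above the minimum, Cacng8, a TARP gene of the hippocampus, had 118 counts. The muscle genes Cacna1s and Cacng1 had 26 and 4 counts, and Scn4a had none.

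The RNA came from brain tissue around the clot of mice labelled WT, 5 days after intracerebral haemorrhage (ICH, bleeding into the brain). The 3 TEPP-46 libraries came from mice given TEPP-46, a small molecule that activates the pyruvate kinase isoform PKM2, and the 3 vehicle libraries from mice given vehicle, in both groups on 5 consecutive days after the bleed. The groups therefore share the haemorrhage, the genotype, the tissue and the day, and tissue without a haemorrhage was not analysed here. Libraries are named by their columns as T1, T2 and T3 for TEPP-46 and C1, C2 and C4 for vehicle. The labels do not state whether each library of a group is a different mouse, and all p-values therefore reflect library-to-library spread, which may be technical.

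Long-read cDNA libraries held 5286426 to 6025064 gene counts each, and the 31 channel genes together took 0.146% to 0.206% of a library. All 8 neuronal markers had counts, and their levels summed to 2932 to 4121 CPM (counts per 1000000 counts of the library) in TEPP-46 libraries and 2652 to 3591 CPM in vehicle libraries. Libraries C2 and C4 stood apart. Myelin markers summed to 5405 CPM in C4, against 13241 to 15439 CPM in the other 5 libraries, and microglial and macrophage markers to 5591 CPM in C2 and 488 CPM in C4, against 822 to 3374 CPM elsewhere. Spp1 alone made up most of the microglial sum in C2, at 3734 CPM. P2ry12 had 95.9 CPM in C4, above every library but C2, while the other markers of that list were lowest in C4. Choroid plexus and ependymal markers summed to 227 CPM in C2 and 187 CPM in C4, against 2268 to 5001 CPM elsewhere, with the choroid plexus transcript Ttr at 0.526 CPM in C2. Ttr and Enpp2 together made up most of these sums. Foxj1 was not low in C2, at 14.2 CPM, against 10.3 to 18.8 CPM in T1, T2, T3 and C1 and 3.59 CPM in C4. The other markers of that list were lower in C2 and C4 than elsewhere. Among the 31 channel genes, C4 was the highest library for 10 and the lowest for 7, C2 was the lowest for 10, and T1 was the highest for 10. Over all tested genes, C4 was the highest library for 24.2% and the lowest for 25.3%. C2 was the lowest for 18.8% of all tested genes, and T1 the highest for 18.4%.

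The comparison asked whether channel transcripts differed between TEPP-46 and vehicle tissue. None of the 31 genes did at an adjusted p under 0.05 in the quasi-likelihood test of edgeR, adjusted by Benjamini-Hochberg over 14441 tested genes, where the background of called genes was 0%. All 31 passed the low-count filter. The smallest adjusted p among them was 0.618, and 0.380 among all genes. DESeq2 called 88 genes, a background of 0.585%, and none of these 31, whose smallest adjusted p there was 0.319. At an unadjusted p under 0.05, 4 of the 31 genes passed in edgeR (12.9%), against 5.93% of all tested genes. Scn9a and Cacna2d2 were the 2 with higher levels in TEPP-46 libraries (6.45%, background 1.88%), and Cacnb3 and Cacng7 the 2 with lower levels (6.45%, background 4.05%).

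The same 4 genes were those whose CPM values did not overlap between groups, which is 12.9% of the channel genes and 11.4% of all tested genes. The higher pair is 6.45% of them, against 5.67% of all tested genes, and the lower pair likewise 6.45%, against 5.76%. A log2 fold change (TEPP-46 over vehicle) above 0 was found for 17 of the 31 genes, or 54.8%, against 51.1% of all tested genes. The median log2 fold change was 0.03 over the channel genes and 0.01 over all tested genes. The share of channel genes at an unadjusted p under 0.05 was 16.1% without T1 (background 3.95%), 12.9% without T2 (background 4.85%), 9.68% without T3 (background 5.53%), 25.8% without C1 (background 6.91%), 29% without C2 (background 10.2%) and 6.45% without C4 (background 4.21%). Without C4, the 2 that remained of these were Scn9a and Cacna2d2. None was called when any 1 library was left out. No channel gene had a log2 fold change beyond 1 in either direction. The standard errors of these log2 fold changes lay between 0.12 and 0.49, with a median of 0.25.

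**Figure D1:**
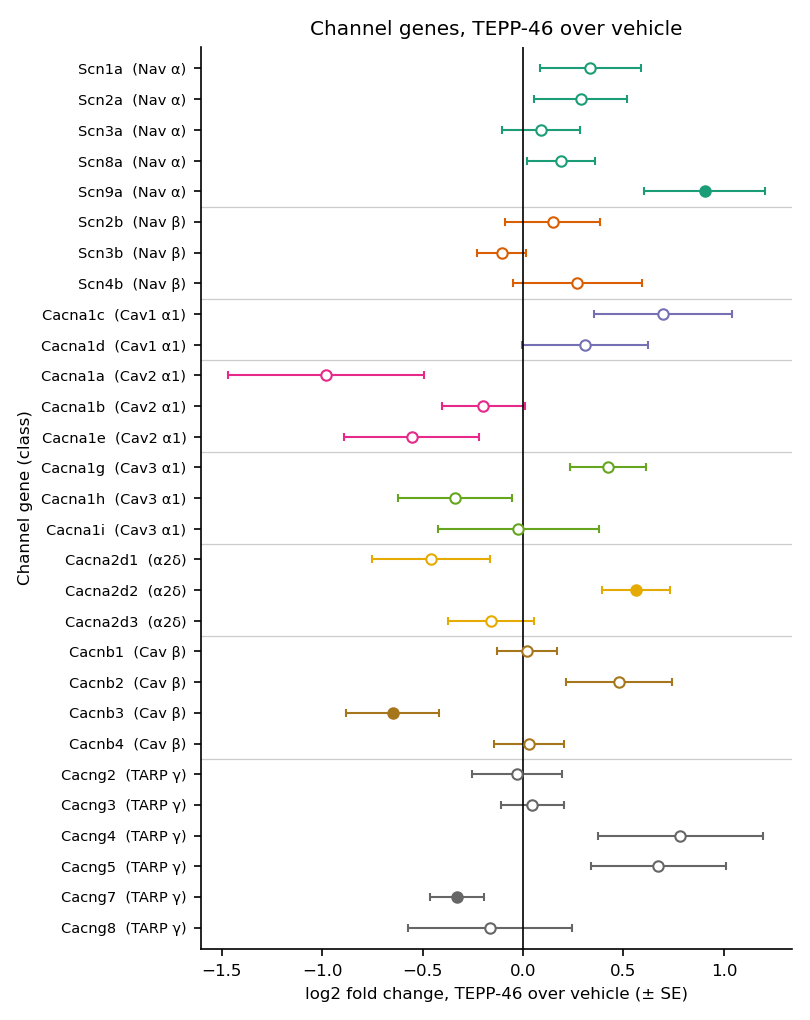
Log2 fold change of 29 channel genes, TEPP-46 over vehicle, with bars of 1 standard error, grouped and coloured by class; filled points have an unadjusted edgeR p under 0.05 and open points do not. The 4 filled points are Scn9a at 0.90, Cacna2d2 at 0.56, Cacnb3 at -0.65 and Cacng7 at -0.33, and the other points fall on both sides of 0.

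Much of the spread lay within the vehicle group. The median within-group SD of log2 CPM over the channel genes was 0.27 in TEPP-46 libraries and 0.41 in vehicle libraries, against 0.22 in TEPP-46 and 0.27 in vehicle libraries over all tested genes. The SD was larger in vehicle for 19 of the 31 channel genes, and for 61.0% of all tested genes. Transcript length moved with the fold changes: over all tested genes the median log2 fold change was -0.04 for transcripts up to 2 kb and 0.09 for those above 8 kb. The 14 channel genes with transcripts above 8 kb had a median of 0.14. The 8 channel genes of 2 to 4 kb had a median of 0.03 and the 5 of 4 to 6 kb one of 0.15. The 2 of 6 to 8 kb had a median of -0.72, against 0.08 over all tested genes of that length. The part of length in these results was not tested.

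**Figure D2:**
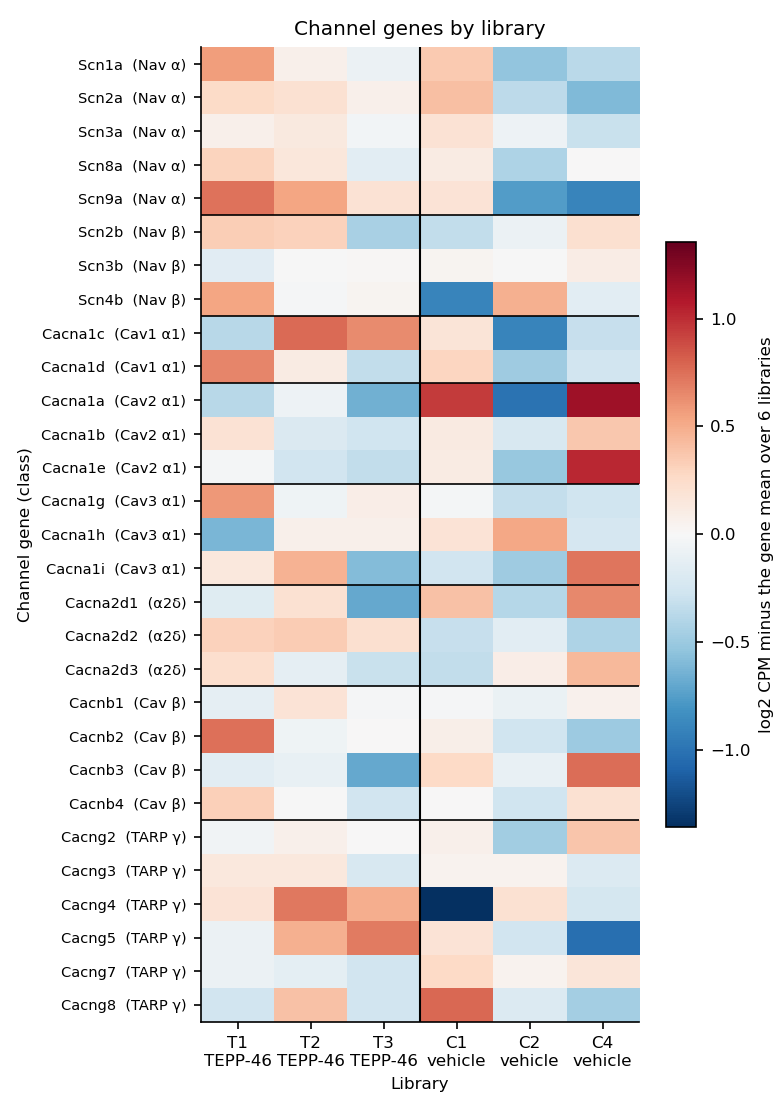
Level of 29 channel genes (rows, by class) in each library (columns, TEPP-46 left of vehicle), as log2 CPM minus the gene's mean over the 6 libraries. The vehicle columns differ from each other: over all 31 genes, C2 is the lowest library for 10, while C4 is the highest for 10 and the lowest for 7. Over all tested genes, C2 is the lowest for 18.8%, and C4 the highest for 24.2% and the lowest for 25.3%.

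Sodium channel alpha subunits form the pore. Their levels summed to 484, 423 and 368 CPM in T1, T2 and T3, against 455, 287 and 313 CPM in C1, C2 and C4. The means were 425 ± 58.2 CPM in TEPP-46 and 352 ± 90.1 CPM in vehicle libraries (SD, n = 3 each), and C1 lay within the TEPP-46 values. In bulk tissue, fewer cells of a type and less RNA per cell cannot be told apart. Of the 6 alpha genes, 5 had a log2 fold change above 0, and 1 of them, Scn9a, had an unadjusted p under 0.05.

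Per kilobase of transcript, 3 brain alpha genes stood together at the top of this class. Scn8a encodes Nav1.6, the channel of mature nodes of Ranvier and initial segments, and averaged 14.4 CPM per kb in TEPP-46 and 12.6 CPM per kb in vehicle libraries. Scn2a encodes Nav1.2 of excitatory axons and averaged 13.6 CPM per kb in TEPP-46 and 11.1 CPM per kb in vehicle libraries. Scn1a encodes Nav1.1, prominent in fast-spiking interneurons, and averaged 11.4 CPM per kb in TEPP-46 and 8.95 CPM per kb in vehicle libraries. Scn9a and Scn3a followed far below, Scn9a at 2.14 CPM per kb in TEPP-46 and 1.14 CPM per kb in vehicle libraries and Scn3a at 2.03 CPM per kb in TEPP-46 and 1.89 CPM per kb in vehicle libraries.

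Scn8a had 188, 169 and 138 CPM in TEPP-46 libraries and 165, 114 and 152 CPM in vehicle libraries, with a log2 fold change of 0.19 ± 0.17 (SE). Scn2a had 128, 124 and 113 CPM in TEPP-46 libraries and 142, 84.0 and 71.1 CPM in vehicle libraries, with a log2 fold change of 0.29 ± 0.23. In both genes the groups overlapped, and for Scn2a C1 was the highest of the 6 libraries. Without C1 the Scn2a difference had an unadjusted p of 0.0030 and a log2 fold change of 0.63, and without C4 it had an unadjusted p of 0.643 and a log2 fold change of 0.098. Scn1a, at 122, 86.1 and 77.8 CPM in TEPP-46 and 105, 56.7 and 63.7 CPM in vehicle libraries, overlapped in the same way.

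Scn9a encodes Nav1.7, best known from pain-sensing neurons outside the brain. It had 24.7, 21.5 and 17.0 CPM in T1, T2 and T3, against 16.9, 8.77 and 7.95 CPM in C1, C2 and C4. All 3 TEPP-46 values lay above all 3 vehicle values, T3 and C1 by a margin of under 1 CPM. The log2 fold change was 0.90 ± 0.30 (SE), with an unadjusted p of 0.0144 and an adjusted p of 0.657 in edgeR. In the authors' deposited table Scn9a had a p of 0.00699 and a log2 fold change of 0.59, and it was the 1 channel gene past the thresholds stated there (p of 0.01 and fold of 1.5), against 1.42% of all genes in the authors' deposited table. When any 1 library was left out, the log2 fold change stayed between 0.71 and 1.32, and the unadjusted p between 0.0010 and 0.0499.

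Within the alpha genes, Scn9a took 5.01%, 5.03% and 4.52% of the summed CPM per kb in TEPP-46 libraries and 3.62%, 3.01% and 2.56% in vehicle libraries. The shares also did not overlap between groups, but they rest on the same counts as the levels and are no further support. Thalamic markers had sums of 244, 123 and 177 CPM in TEPP-46 and 212, 89.1 and 42.4 CPM in vehicle libraries, with T1 the highest and C4 the lowest but C1 above T2 and T3. All 6 of these markers had counts and a log2 fold change above 0 (background 51.1%), none with an unadjusted p under 0.05. Their part in the Scn9a result was not tested. Scn9a lies on the minus strand at chr2:66480080-66634962 of GRCm38.

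Scn3a, the alpha subunit typical of the embryonic and newborn brain, had 18.1 to 20.5 CPM in TEPP-46 and 15.1 to 21.3 CPM in vehicle libraries.

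Sodium channel beta subunits are single-pass membrane proteins that tune gating and act in cell adhesion. Their sum was 340 ± 33.1 CPM in TEPP-46 and 359 ± 92.5 CPM in vehicle libraries (SD, n = 3 each). The libraries overlapped between groups, and C4 was the highest of the 6, at 465 CPM.

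Scn3b varied little between libraries, at 77.2, 85.9 and 87.1 CPM in TEPP-46 libraries and 88.6, 86.0 and 92.3 CPM in vehicle libraries. Its log2 fold change was -0.11 ± 0.12 (SE). Scn4b, whose product takes part in the resurgent sodium current, had 79.2, 53.9 and 55.8 CPM in TEPP-46 libraries and 29.2, 76.1 and 49.4 CPM in vehicle libraries. The low C1 value set its positive log2 fold change of 0.27, which was -0.01 without C1. Markers of striatal projection neurons had the same low library, with summed levels of 1248 to 1578 CPM in TEPP-46 libraries and 683, 1870 and 1001 CPM in C1, C2 and C4. Of those 10 markers, all with counts, 8 had a log2 fold change above 0 (background 51.1%) and 1, Pde10a, an unadjusted p under 0.05 (background 1.88% higher). Their part in the Scn4b values was not tested.

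**Figure D3:**
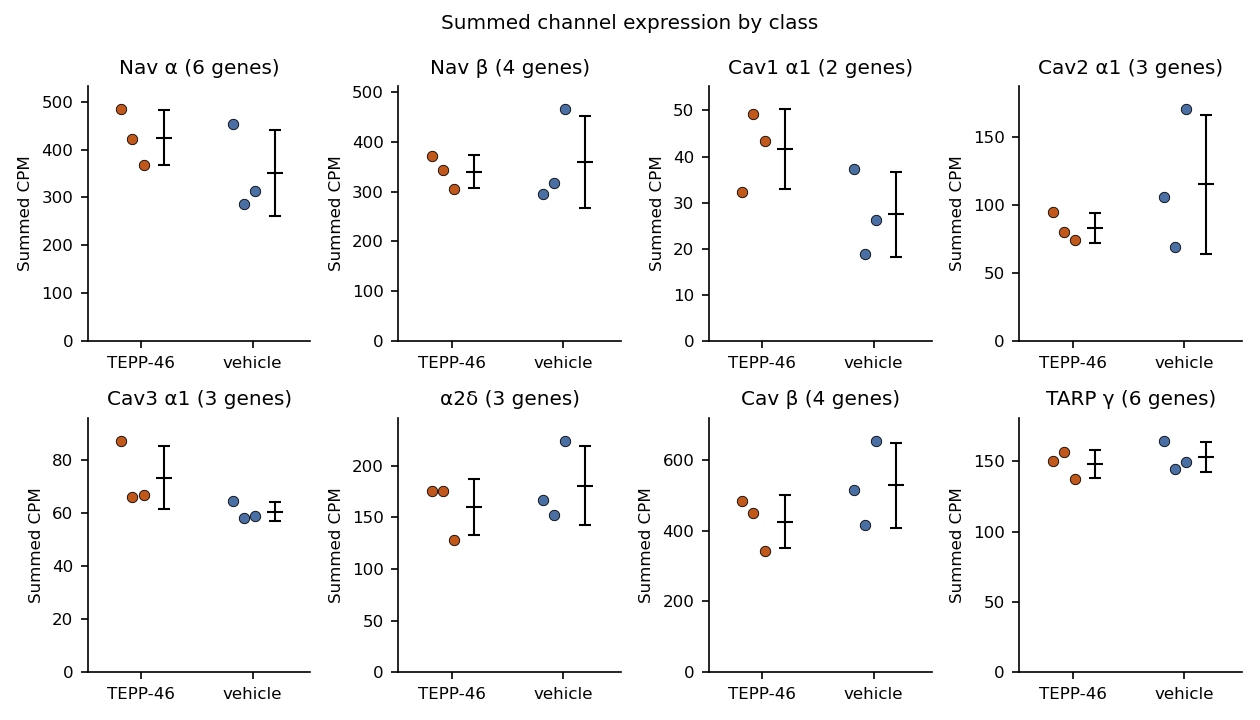
Summed CPM of each channel class in each library (points, TEPP-46 left of vehicle) with the group mean and SD (bars, n = 3 each). Means of the sodium channel alpha class are 425 and 352 CPM and those of the calcium channel beta class 425 and 527 CPM, for TEPP-46 and vehicle. The libraries overlap between groups in every class but Cav3, where the lowest TEPP-46 value is 65.8 and the highest vehicle value 64.6 CPM.

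Calcium channel alpha1 subunits fall into L-type Cav1 channels, which signal to the nucleus and shape firing, Cav2 channels, which trigger transmitter release, and low-voltage-activated T-type Cav3 channels, which support burst firing. The Cav1 sum was 41.6 ± 8.67 CPM in TEPP-46 and 27.5 ± 9.22 CPM in vehicle libraries, the Cav2 sum 82.9 ± 10.8 CPM in TEPP-46 and 115 ± 51.4 CPM in vehicle libraries, and the Cav3 sum 73.3 ± 12.01 CPM in TEPP-46 and 60.5 ± 3.57 CPM in vehicle libraries (SD, n = 3 each). The libraries of both groups overlapped for Cav1 and Cav2. The Cav3 sums were 87.1, 65.8 and 66.9 CPM in T1, T2 and T3, against 64.6, 58.2 and 58.6 CPM in vehicle libraries C1, C2 and C4. They did not overlap, though T2 exceeded C1 by little more than 1 CPM. Both Cav1 genes had a log2 fold change above 0, all 3 Cav2 genes one below 0, and the Cav3 genes were mixed. None of the 8 alpha1 genes had an unadjusted p under 0.05 in edgeR with all libraries and the low-count filter.

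Cacna1c encodes Cav1.2 and had 17.9, 39.5 and 36.2 CPM in TEPP-46 libraries and 26.2, 12.5 and 18.7 CPM in vehicle libraries. T2 and T3 were the 2 highest libraries, while T1 lay below C1 and C4. The log2 fold change was 0.70 ± 0.34 (SE), with an unadjusted p of 0.0741 in edgeR and 0.0465 in DESeq2. Without T1 it was 0.98, with an unadjusted p of 0.0080, and without C1 it was 0.99, with an unadjusted p of 0.0325. Without T2 it was 0.48, with an unadjusted p of 0.249, and without C2 it was 0.47, with an unadjusted p of 0.193. Cacna1d, which encodes Cav1.3, had 14.3, 9.78 and 7.16 CPM in TEPP-46 libraries and 11.0, 6.49 and 7.57 CPM in vehicle libraries, a full overlap.

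The Cav2 differences rested on vehicle libraries that disagreed with each other. Cacna1a, which encodes the P/Q-type channel Cav2.1, had 4.32, 5.34 and 3.58 CPM in TEPP-46 libraries and 10.9, 2.81 and 12.5 CPM in vehicle libraries. C1 and C4 were more than 2-fold above C2, which was the lowest of the 6. Its log2 fold change of -0.98 ± 0.49 (SE) was the largest in size among the 31 genes and had an unadjusted p of 0.0753. Without C2 it was -1.40, with an unadjusted p of 0.00093, and without C4 it was -0.62, with an unadjusted p of 0.257. Without C1 it was -0.79, with an unadjusted p of 0.204.

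Cacna1e encodes the R-type channel Cav2.3 and was the highest Cav2 gene per kilobase, at 3.52 CPM per kb in TEPP-46 and 5.13 CPM per kb in vehicle libraries. It had 59.3, 50.5 and 47.7 CPM in TEPP-46 libraries and 65.0, 42.3 and 122 CPM in vehicle libraries. C4 alone was more than 1.5-fold above all others, and without C4 the log2 fold change was -0.04 instead of -0.56. Cacna1b, the N-type channel Cav2.2, had 31.4, 24.0 and 22.8 CPM in TEPP-46 libraries and 30.0, 23.7 and 35.4 CPM in vehicle libraries, and its groups overlapped.

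Cacna1g encodes the T-type channel Cav3.1 of thalamic relay and other bursting neurons. It was the highest alpha1 gene per kilobase, at 6.95 CPM per kb in TEPP-46 and 5.14 CPM per kb in vehicle libraries. Per kilobase, Cacna1e was close to it in vehicle libraries, at 5.13 CPM per kb. In mean CPM, Cacna1e was above Cacna1g in vehicle libraries (76.5 against 43.1) and below it in TEPP-46 libraries (52.5 against 58.3). Cacna1g had 74.5, 47.7 and 52.6 CPM in TEPP-46 libraries and 48.5, 39.6 and 41.0 CPM in vehicle libraries. Only T2 and C1 crossed, by 1 CPM or less, and the log2 fold change of 0.42 ± 0.19 (SE) had an unadjusted p of 0.0521. Without the low-count filter the unadjusted edgeR p was 0.0484. The sum of the thalamic markers given beside Scn9a was likewise highest in T1. Of the single markers, Tcf7l2, Lef1 and Synpo2 were highest in T1, Prkcd and Ntng1 in C1, and Slc17a6 in T3. Cacna1h (Cav3.2) had 6.64 to 10.7 CPM in TEPP-46 and 8.70 to 14.7 CPM in vehicle libraries. Cacna1i (Cav3.3) had 3.58 to 7.47 CPM in TEPP-46 and 3.86 to 8.89 CPM in vehicle libraries.

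The alpha2delta subunits sit on the outer face of the membrane and raise the number of channels that reach the surface. Cacna2d2, the alpha2delta gene that is mutated in ducky mice, had 27.4, 27.9 and 25.6 CPM in T1, T2 and T3, against 17.8, 20.0 and 16.5 CPM in C1, C2 and C4. Both groups were tight, and the lowest TEPP-46 library lay more than 5 CPM above the highest vehicle library. The log2 fold change of 0.56 ± 0.17 (SE) had the smallest unadjusted p of the 31 genes, 0.0086, and an adjusted p of 0.618 in edgeR. Leaving out any 1 library kept the log2 fold change between 0.50 and 0.65 and the unadjusted p between 0.0088 and 0.0305. The authors' deposited table gave it a p of 0.0155 and a log2 fold change of 0.44, outside the p of 0.01 used there.

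Cacna2d2 took 12.9%, 14.1% and 16.6% of the summed alpha2delta CPM per kb in TEPP-46 libraries and 9.84%, 10.7% and 6.35% in vehicle libraries. The share was thus higher in every TEPP-46 library. It depends on the annotated length used for Cacna2d3, whose counts were mostly in new isoforms. The share of Cacna2d2 also rests on the same counts as its level and is no further support. Its 4 main annotated isoforms each had 179 or 180 counts in all, and 2 of them, Cacna2d2-201 and Cacna2d2-208, had equal counts in every library, so that no isoform of the gene can be singled out. Cacna2d2 lies on the plus strand at chr9:107399612-107529343 of GRCm38.

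The other alpha2delta genes overlapped between groups. Cacna2d1, a target of gabapentin, had 60.2, 78.3 and 41.8 CPM in TEPP-46 libraries and 89.0, 51.7 and 106 CPM in vehicle libraries, with a log2 fold change of -0.46 ± 0.29 (SE). Its unadjusted p was 0.152. The log2 fold change was -0.70 without C2 (unadjusted p of 0.0175) and -0.70 without T2 (0.0579), against -0.23 without C4 (0.464) and -0.25 without T3 (0.412). Cacna2d3 was the highest gene of the class per kilobase of annotated transcript, at 19.7 CPM per kb in TEPP-46 and 21.8 CPM per kb in vehicle libraries. New isoforms, whose lengths were not used, held most of its counts in both groups, 78.8% in vehicle libraries. Its rank per kilobase therefore rests on a length that may not hold for most of its counts. In mean CPM, Cacna2d3 was above Cacna2d1 in TEPP-46 libraries (72.7 against 60.1). In vehicle libraries it was below Cacna2d1 (80.4 against 82.3). Cacna2d3 had 88.0, 69.0 and 61.1 CPM in TEPP-46 libraries and 59.6, 80.2 and 102 CPM in vehicle libraries.

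The cytoplasmic beta subunits bind the alpha1 pore, bring it to the membrane and set its gating. Cacnb3 had the largest count of the 31 genes, 8656 in all. It had 226, 233.2 and 155 CPM in T1, T2 and T3, against 301, 233.5 and 421 CPM in C1, C2 and C4. Every vehicle library lay above every TEPP-46 library, but C2 exceeded T2 by under 1 CPM. The log2 fold change was -0.65 ± 0.23 (SE), with an unadjusted p of 0.0214 and an adjusted p of 0.713 in edgeR. Leaving out 1 library gave log2 fold changes from -0.82 without C2 to -0.39 without C4, and unadjusted p-values from 0.0031 to 0.0766.

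In the authors' deposited table Cacnb3 had a p of 0.00562 and a log2 fold change of -0.52, which passes the p of 0.01 but not the fold of 1.5 used there; 1.97% of all genes in the authors' deposited table passed that p. Markers of cortical excitatory neurons had sums of 451, 429 and 279 CPM in TEPP-46 libraries and 503, 296 and 511 CPM in vehicle libraries. T3 and C2 were the lowest of their groups, and C4 the highest library, in both. All 8 of these markers had counts, and 1 had a log2 fold change above 0 (background 51.1%). Neurod2, a transcription factor of these neurons, had an unadjusted p under 0.05 (background 4.05% lower). It had 6.31, 8.36 and 10.6 CPM in TEPP-46 libraries and 31.8, 12.8 and 26.1 CPM in vehicle libraries. The part of these markers in the Cacnb3 result was not tested.

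Cacnb3 made up a smaller part of the beta class in every TEPP-46 library. It took 66.5%, 70.0% and 63.8% of the class CPM per kb in TEPP-46 libraries and 75.7%, 73.6% and 80.4% in vehicle libraries. Cacnb4, the subunit mutated in lethargic mice, took 18.7%, 15.2% and 17.5% in TEPP-46 libraries and 12.8%, 13.3% and 11.3% in vehicle libraries. Its own level showed no such difference, with 191, 152 and 128 CPM in TEPP-46 libraries and 154, 127 and 177 CPM in vehicle libraries and a log2 fold change of 0.03 ± 0.18 (SE). Cacnb1 was level at 38.3 to 47.3 CPM in TEPP-46 and 39.3 to 43.5 CPM in vehicle libraries. Cacnb2 ranged from 16.4 to 28.5 CPM in TEPP-46 and 12.1 to 18.0 CPM in vehicle libraries, with T1 the highest.

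**Figure D4:**
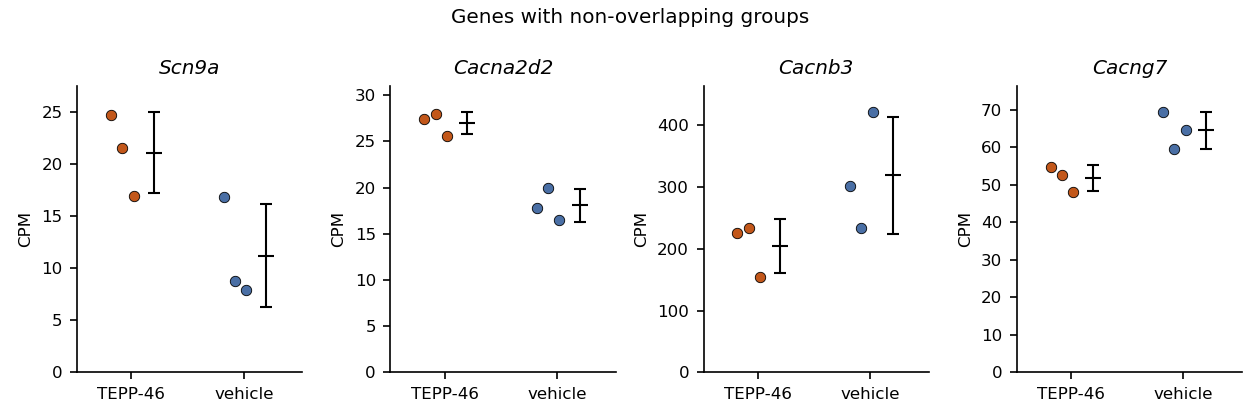
CPM of Scn9a, Cacna2d2, Cacnb3 and Cacng7 in each library (points, TEPP-46 left of vehicle) with the group mean and SD (bars, n = 3 each). The groups do not overlap in any of the 4 genes, with a wide gap for Cacna2d2 and a gap of under 1 CPM for Scn9a and Cacnb3.

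Cacnb3 lies on the plus strand of chromosome 15, and its annotated coding isoforms with counts begin at 2 alternative first exons. Cacnb3-202 begins at the upstream exon, and Cacnb3-201 and Cacnb3-206 at the downstream exon. Cacnb3-206 differs from Cacnb3-202 in its first exon, and Cacnb3-201 also lacks an internal exon of 81 bases at chr15:98641177-98641257. The coding parts of the first exons are shown because they tell Cacnb3-202 from the other two; they give the proteins different amino-terminal ends. Read from the GENCODE transcripts on GRCm38, 5′ to 3′, with the start codon in capitals, they lie at chr15:98632479-98632520 for Cacnb3-202 and at chr15:98635169-98635213 for Cacnb3-206.
Cacnb3-202: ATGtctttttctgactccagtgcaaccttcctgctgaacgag
Cacnb3-206: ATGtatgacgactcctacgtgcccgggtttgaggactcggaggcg

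The 2 first exons have separate upstream sequences, shown because they lie before the starts of these isoforms. These are the 250 bases before each RefSeq start on GRCm38.p6, plus strand, at chr15:98632078-98632327 and chr15:98634517-98634766, with CCAAT boxes (CCAAT) and GC boxes (GGGCGG) found on either strand in capitals.
Upstream promoter: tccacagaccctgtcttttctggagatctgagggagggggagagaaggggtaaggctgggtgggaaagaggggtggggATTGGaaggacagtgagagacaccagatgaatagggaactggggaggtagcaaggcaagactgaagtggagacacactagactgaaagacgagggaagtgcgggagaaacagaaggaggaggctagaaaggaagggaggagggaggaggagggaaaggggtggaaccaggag
Downstream promoter: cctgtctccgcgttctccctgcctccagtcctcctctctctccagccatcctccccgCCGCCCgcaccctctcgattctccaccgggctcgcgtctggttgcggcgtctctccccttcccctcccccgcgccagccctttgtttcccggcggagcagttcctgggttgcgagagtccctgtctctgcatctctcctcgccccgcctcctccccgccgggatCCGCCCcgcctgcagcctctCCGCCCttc

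The downstream sequence held 70.4% G and C, 23 CpG dinucleotides and 3 GC boxes, and no CCAAT box. The upstream sequence held 56% G and C, 2 CpG dinucleotides, 1 CCAAT box and no GC box. The medians over all 32851 promoters of this length were 52.4% G and C and 6 CpG dinucleotides, of which 32.7% held a GC box and 33.8% a CCAAT box. Of 34 promoters matched to 23 channel genes, 35.3% held a GC box and 26.5% a CCAAT box. These are descriptions of letters in a window and not of bound sites.

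Across isoforms, 121 of the 190 isoforms listed for the channel genes were tested, and none was called in edgeR at an adjusted p under 0.05 (background 0%). At an unadjusted p under 0.05, 15 of the 121 passed (12.4%, background 5.77%), 10 of them higher in TEPP-46 libraries (8.26%, background 1.88%) and 5 lower (4.13%, background 3.9%). Isoform counts of a gene are not independent of each other here: of 281 pairs with at least 60 counts each, 37 pairs in 12 genes stayed within 3 counts of each other in every library. The 10 higher isoforms include 4 of Scn9a and 4 of Cacna2d2 and so largely repeat those genes.

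The 2 smallest p-values were both in Cacnb3. Cacnb3-206 had 237, 244 and 162 counts in TEPP-46 libraries and 355, 277 and 480 counts in vehicle libraries, with a log2 fold change of -0.89 ± 0.22 (SE), an unadjusted p of 0.0017 and an adjusted p of 0.403 in edgeR. The new isoform ONT.4238.5, for which no exon positions were used here, had 207, 232 and 151 counts in TEPP-46 libraries and 416, 268 and 615 counts in vehicle libraries, with a log2 fold change of -1.24 ± 0.30 (SE), an unadjusted p of 0.0034 and an adjusted p of 0.501. In both isoforms every vehicle library lay above every TEPP-46 library, and C4 was the highest. Cacnb3-202, with the upstream first exon, had 257, 224 and 147 counts in TEPP-46 libraries and 226, 219 and 300 counts in vehicle libraries, and its groups overlapped. Its log2 fold change was -0.35 ± 0.20 (SE), with an unadjusted p of 0.102. Cacnb3-201, which shares the downstream first exon with Cacnb3-206, had 173, 179 and 94 counts in TEPP-46 libraries and 186, 150 and 270 counts in vehicle libraries. Its groups also overlapped, and its log2 fold change of -0.54 ± 0.27 (SE), with an unadjusted p of 0.0678, lay between those of Cacnb3-206 and Cacnb3-202, so the values did not divide by first exon alone.

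The calls for these isoforms depended on the test. DESeq2 gave an adjusted p of 0.0020 for ONT.4238.5 and of 0.0259 for Cacnb3-206, the 2 channel isoforms among its calls (2.38%, background 0.64%). In the authors' deposited table ONT.4238.5 had an adjusted p of 0.00423 and a log2 fold change of -0.92, and it was the 1 channel isoform past an adjusted p of 0.05 and a fold of 1.5, where the background was 0.323%. Cacnb3-206 had an adjusted p of 0.0533 in the authors' deposited table. Without library C2, edgeR called both, with adjusted p-values of 0.0046 for ONT.4238.5 and 0.0190 for Cacnb3-206 (background 0.509%). Over all other single libraries left out, neither was called.

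The share of annotated Cacnb3 isoform counts that carried the downstream first exon was computed after these values were seen. It was 61.5%, 65.4% and 63.5% in TEPP-46 libraries and 70.5%, 66.1% and 71.4% in vehicle libraries. The groups did not overlap, but the exact 95% binomial intervals of T2 (61.6% to 69.0%) and C2 (62.3% to 69.7%) did; such intervals cover counting error only. The means were 63.5% ± 1.96 in TEPP-46 and 69.4% ± 2.85 in vehicle libraries (SD, n = 3 each), with an exact two-sided permutation p of 0.1, which no 3-against-3 comparison can undercut. With Cacnb3-206 set against Cacnb3-202 alone, the means were 50.8% ± 2.49 in TEPP-46 and 59.5% ± 3.17 in vehicle libraries with the same exact permutation p of 0.1. New isoforms, which hold 50.9% of Cacnb3 counts in TEPP-46 and 52.2% in vehicle libraries, do not enter these shares.

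**Figure D5:**
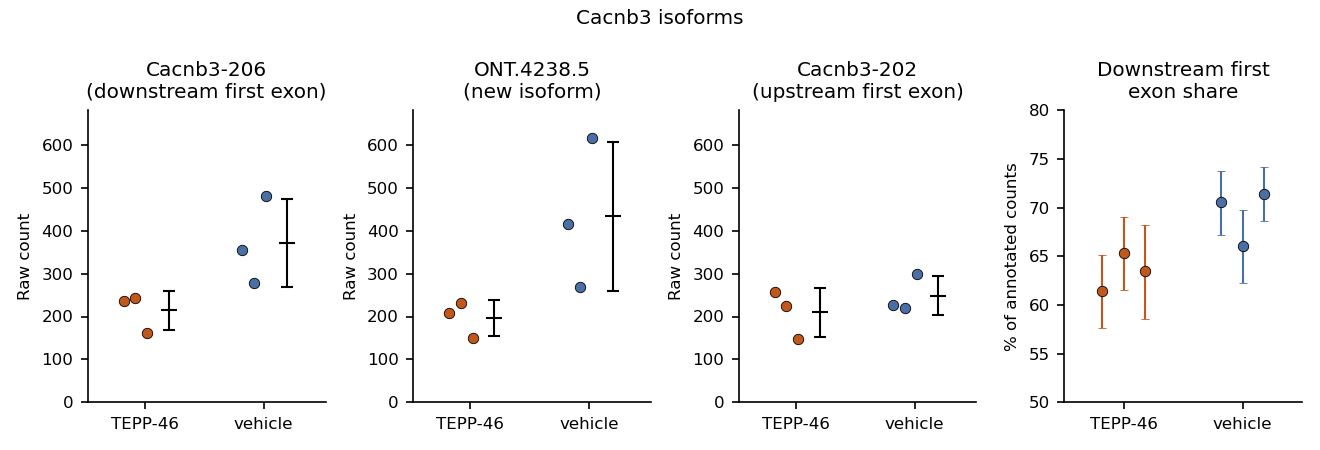
Raw counts of 3 Cacnb3 isoforms in each library (points, TEPP-46 left of vehicle, with group mean and SD, n = 3 each) and, at the right, the percent of annotated isoform counts with the downstream first exon, with exact 95% binomial intervals per library on an axis from 50% to 80%. Cacnb3-206 and ONT.4238.5 are higher in every vehicle library, Cacnb3-202 overlaps, and the downstream share is lowest in T1 at 61.5% and highest in C4 at 71.4%.

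A test of isoform usage, which asks whether the isoforms of a gene change relative to one another, called none of 25 channel genes in edgeR (background 0.0131%), and none had an unadjusted p under 0.05 (background 0.641%). The smallest unadjusted p among them was 0.268. The share of the most abundant isoform did not overlap between groups in 5 of 28 channel genes (17.9%), against 11.8% of all genes with at least 60 counts, among them Cacna2d3, Cacnb3, Scn8a and Cacnb2, each with an exact two-sided permutation p of 0.1 and an adjusted p of 0.56 over the 28. With annotated isoforms only it did not overlap in 2 of 27 channel genes, Cacnb3 and Scn8a (7.41%, background 11.1%). In Cacnb3 this share, of ONT.4238.5, was 17.1% ± 1.68 in TEPP-46 and 24.6% ± 3.93 in vehicle libraries (SD, n = 3 each). The remaining gene differences were smaller, with Scn8a-204 at 29.3% ± 0.53 of Scn8a in TEPP-46 and 30.4% ± 0.73 in vehicle libraries.

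Most brain sodium channel alpha genes carry a pair of mutually exclusive exons of 92 bases that encode part of the voltage sensor of the first domain. In Scn9a and Scn8a the counts do not resolve this choice. In Scn9a the upstream exon of the pair was assigned 80.9% ± 0.99 of counts in TEPP-46 and 81.1% ± 1.92 in vehicle libraries, but 4 of its 5 annotated isoforms carry that exon and all 5 had nearly even totals of 103 to 116 counts. In Scn8a the share was 35.1% ± 1.02 in TEPP-46 and 33.3% ± 0.64 in vehicle libraries (SD, n = 3 each), with an exact two-sided permutation p of 0.1 and an adjusted p of 0.5 over 5 genes. The 3 main Scn8a isoforms, 1 of them with the upstream exon, again had near-even totals of 1477 to 1534 counts. In Scn2a the totals were uneven, at 754 and 718 counts for Scn2a-201 and Scn2a-202 with the upstream exon and 500 and 72 counts for Scn2a-205 and Scn2a-204 with the downstream exon. Its upstream share was 71.1% ± 1.44 in TEPP-46 and 74.1% ± 5.82 in vehicle libraries (SD, n = 3 each), and the groups overlapped (exact two-sided permutation p of 0.5). New isoforms, which hold 44.8% of Scn2a counts in TEPP-46 and 43.4% in vehicle libraries, do not enter this share. The new isoform ONT.6665.3 had the same counts as Scn2a-204 in every library, so the assignment of reads is uncertain in Scn2a as well.

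TARPs bind AMPA receptors, carry them to synapses and slow their closing. The 6 TARP genes summed to 148 ± 9.70 CPM in TEPP-46 and 153 ± 10.4 CPM in vehicle libraries (SD, n = 3 each). Cacng7, which encodes the type II TARP gamma-7, was the highest of them per kilobase. It had 54.6, 52.6 and 48.0 CPM in T1, T2 and T3, against 69.3, 59.5 and 64.5 CPM in C1, C2 and C4. All 3 vehicle values lay above all 3 TEPP-46 values, by nearly 5 CPM at the closest.

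The Cacng7 log2 fold change was -0.33 ± 0.13 (SE), with an unadjusted p of 0.0372 and an adjusted p of 0.803 in edgeR. With 1 library left out it stayed between -0.37 and -0.27, with unadjusted p-values from 0.0407 to 0.126. Cacng7 lies on the plus strand at chr7:3332955-3368221 of GRCm38. Cacng3, the gene of gamma-3, was next per kilobase. It averaged 19.8 CPM per kb in TEPP-46 and 19.0 in vehicle libraries, against 23.4 and 29.1 for Cacng7. Cacng3 was level between groups, at 59.4, 59.4 and 46.2 CPM in TEPP-46 libraries and 55.6, 55.6 and 47.3 CPM in vehicle libraries. Cacng4 had only 7 to 31 counts a library, at 3.82, 5.51 and 4.71 CPM in TEPP-46 and 1.31, 3.86 and 2.84 CPM in vehicle libraries, T1 lying just below C2. Cacng2, which encodes stargazin, had 21.2 to 22.9 CPM in TEPP-46 and 15.8 to 28.4 CPM in vehicle libraries, and Cacng5 7.97 to 13.8 CPM in TEPP-46 and 4.16 to 9.55 CPM in vehicle libraries.

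Genes that work with the channels were read from lists by the same test, and none was called. Of 14 AMPA receptor and auxiliary genes, 4 had an unadjusted p under 0.05, all lower in TEPP-46 libraries (background 4.05%), and 5 had a log2 fold change above 0 (background 51.1%). Cnih3, a cornichon protein that traffics AMPA receptors, had 11.1, 23.5 and 22.0 CPM in TEPP-46 libraries and 31.8, 29.3 and 38.2 CPM in vehicle libraries, without overlap. Its relative Cnih2 had 63.1, 86.6 and 62.7 CPM in TEPP-46 libraries and 150, 71.9 and 228 CPM in vehicle libraries, C2 lying inside the TEPP-46 values. Gsg1l and Porcn were the others, with log2 fold changes of -0.99 and -0.42. In Cnih2 and Gsg1l, C1 and C4 were the highest libraries and C2 the lowest vehicle library, as in the summed cortical excitatory markers given beside Cacnb3, whose part in these values was not tested. Dlg4, the scaffold PSD-95, had the highest level of the list and a log2 fold change of 0.26 ± 0.16 (SE).

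Of 16 partners of sodium channels at initial segments and nodes, 11 had a log2 fold change above 0 (background 51.1%). Of them, 1 had an unadjusted p under 0.05 (background 1.88% higher). That gene was Nfasc, the adhesion protein neurofascin, at 71.5, 58.5 and 69.7 CPM in TEPP-46 libraries and 57.5, 50.2 and 42.2 CPM in vehicle libraries. Myelin markers, with which nodes occur, were all 8 above 0 in log2 fold change (background 51.1%) without an unadjusted p under 0.05. Their sums were 13241 to 15439 CPM in TEPP-46 libraries and 5405 to 13711 CPM in vehicle libraries, and their part in the Nfasc values was not tested. Of 18 tested genes of the release site, 12 were above 0 (background 51.1%). Of these, 1, Rims3, had an unadjusted p under 0.05 (background 1.88% higher), with a log2 fold change of 0.47. The 4 genes of the sodium leak channel complex had none.

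Of 13 tested intracellular and store-operated calcium channel genes, 2 had a log2 fold change above 0 (background 51.1%). Stim1, the calcium sensor of the endoplasmic reticulum, had 47.5, 50.2 and 40.5 CPM in TEPP-46 libraries and 32.0, 33.0 and 35.2 CPM in vehicle libraries. Mcu, the pore of the mitochondrial calcium uniporter, had 2.82, 6.76 and 8.48 CPM in TEPP-46 libraries and 13.7, 11.2 and 11.4 CPM in vehicle libraries. Neither pair of groups overlapped, and the unadjusted p-values were 0.0153 for Stim1 and 0.0184 for Mcu, with adjusted p-values of 0.667 and 0.700 in edgeR. Over all tested genes, 11.4% did not overlap between groups and 5.93% had an unadjusted p under 0.05.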

How the data were processed

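The authors deposited a gene table and an isoform table with raw counts per library, per the file headers. CPM was computed here from the deposited counts by scaling each library's total to 1000000; 12 further deposited columns of values per library were not used. Levels per kilobase divide CPM by the longest annotated coding transcript (GENCODE, GRCm38). Rankings and class shares per kilobase depend on this division, and whether these long-read counts rise with transcript length was not tested. Per the submitters' processing notes the build was GRCm38 and DESeq 1.10.1 was used, while the file headers name DESeq2. Aligner and counter, and how a read matching more than 1 isoform was counted, are not given in the sources read. Long reads were counted from total RNA amplified as cDNA, per the labels' protocols, with no molecular identifiers mentioned, so counts are of amplified reads. The authors' deposited p-values and log2 fold changes are quoted only where so named.

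Columns were tied to groups by their letter, since their numbers do not match the numbered samples. The gene test was run in R 4.3.3 with edgeR 4.0.16: filterByExpr, TMM, a robust quasi-likelihood F test with group as the single term, and Benjamini-Hochberg adjustment over all tested genes, with 0.05 as threshold. Standard errors were derived from the F statistics. Isoforms were tested likewise, and isoform usage with diffSpliceDGE. DESeq2 1.42.0 was an alternative. Shares were compared by exact two-sided permutation over libraries, and the fits were tested on simulated data. Over 4 simulated draws the gene test called 4.59% of genes changed 1.5-fold and 68.0% of those changed 3-fold. Changes of 1.5-fold were thus mostly missed. Of its calls there, 10.3% were false, which is more than the adjusted p threshold of 0.05 allows for. The usage test recovered 83% of genes with a simulated 4-fold change of 1 isoform. Named genes were those with an unadjusted p under 0.05 or groups without overlap. Also named were the 2 with the largest counts and the gene with the largest range in each class, and those next to the count minimum. Of each list, those with the smallest p and the highest level were named. Cnih2, Gsg1l, Porcn, Mcu, the other cell type markers, the isoforms and the remaining channel genes were named after their values were seen. The channel genes, classes and lists were chosen with earlier results of these data known. Promoters came from RefSeq (GRCm38.p6) and were matched for 23 of the 31 genes by symbol. Values of 2 of the 31 genes are not reported here, though they enter counts and sums.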

Additional observations from a re-analysis of the deposited data

How the results depend on the processing

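No channel gene was called under any of the 10 alternatives, where the smallest adjusted p was 0.108 (edgeR or DESeq2), and 21 of 31 kept the sign of their log2 fold change throughout. Another scaling and no robust step changed no call among genes. DESeq2 called 88 genes, and gave 1 channel gene with lower levels at an unadjusted p under 0.05 instead of 2. It added Cacna1c to those with higher levels, at an unadjusted p of 0.0465. Without the low-count filter, edgeR added Cacna1g to those with higher levels, at an unadjusted p of 0.0484. Without 1 library at a time, edgeR called 0 to 43 genes, with 43 without C2; 183 to 665 genes were higher and 390 to 836 lower at an unadjusted p under 0.05. Channel genes past that p then numbered 2 to 7 higher and 0 to 5 lower, with 9 in all without C2 and 2 without C4. For isoforms, 165 were called without the low-count filter, 160 by DESeq2 and 0 to 178 without 1 library (178 without C2). Channel isoforms called were 1 (Cacnb3-206) without the filter, 2 by DESeq2 and 0 to 2 without 1 library. At an unadjusted p under 0.05, 12 channel isoforms were lower without the filter and 1 was higher by DESeq2, and without 1 library 1 to 16 were higher and 2 to 18 lower. With annotated isoforms only, the most abundant isoform's share was without overlap in 2 of 27 genes, Cacnb3 and Scn8a, instead of 5 of 28 (all genes: 11.1% against 11.8%). Signs turned only without 1 library. Over these, log2 fold changes ranged from -0.13 (without T1) to 0.16 for Cacnb4, -0.026 (without C4) to 0.16 for Cacng3, -0.27 to 0.44 (without C4) for Cacna1i, -0.015 (without C1) to 0.67 for Scn4b and -0.34 to 0.044 (without C4) for Cacna2d3; Cacnb1, Cacng2, Cacng8 and Scn3a also turned. The cause was not tested. The lower downstream first exon share of Cacnb3 in TEPP-46, chosen after seeing the data, differed (TEPP-46 minus vehicle) by -7.52 to -4.86 percentage points over the single libraries left out. DESeq2 gives no usage value, and class sums moved by less than 1 SD. No paired analysis was possible because the column numbers do not carry the samples' replicate numbers. Genes with few counts, such as Cacng4 and Cacng8, are limited by depth.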
